A study of Mus musculus and Homo sapiens with 14 samples.

Results

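The integrated stress response and the endoplasmic reticulum (ER) folding machinery were followed as 48 mouse genes, looked up by symbol among the 35288 gene identifiers of each of 2 mouse expression tables. The genes were kept in 2 sets. The amino acid response set had 29 genes of the kind that the transcription factor ATF4 induces, made up of 14 regulators and feedback genes, 11 enzymes of amino acid and one-carbon metabolism and 4 transporters. The ER folding set had 19 genes, made up of 11 chaperones and co-chaperones, 3 disulfide isomerases, 4 genes for the degradation of misfolded proteins and the regulator Xbp1. All 48 symbols were found.

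RNA was sequenced from Oli-neu, a mouse line of oligodendrocyte precursor type, from MB1, tumour cells taken from Sonic hedgehog medulloblastomas of Atoh1-cre:SmoM2 mice at P12, and from D341, a human Group 3 medulloblastoma line whose own table was not used here. The 10 mouse libraries formed 5 groups of 2 biological replicates: Oli-neu alone, Oli-neu with MB1, Oli-neu with D341, MB1 alone and MB1 with Oli-neu. In co-culture the lines were kept apart by inserts of 30 mm with pores of 0.4 µm, and every group, the controls included, grew in the same serum-free medium with B-27, N-2 and 20 ng/mL of EGF and of bFGF. Each condition thus rests on 1 line, and in MB1 the Atoh1-cre driver and the activated SmoM2 allele are carried by the monoculture and the co-culture alike. Levels are in TPM, a share of all transcripts that is already divided by transcript length, so levels can be set side by side between genes.

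When amino acids are short, or when unfolded proteins build up in the ER, kinases phosphorylate the translation factor eIF2, which slows translation in general but lets the ATF4 message be translated. ATF4 then turns on genes that make, import and attach amino acids, together with feedback genes that end the response. A separate arm of the unfolded protein response, run by XBP1 and ATF6, raises chaperones such as BiP, the product of Hspa5, so the 2 sets of genes can move together or apart. Oligodendrocyte lineage cells, which make large amounts of myelin membrane and secretory cargo, are known to be sensitive to both arms.

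Each library summed to 1000000 TPM and had between 11596 and 12338 genes at 1 TPM or more. The deposited tables hold no counts, so the depth is unknown. Replicate libraries had a Pearson r of 0.944 to 0.972, taken across genes, which are no replicates of each other. Mitochondrially encoded genes took 1.93% to 4.53% of each Oli-neu total and 5.73% to 9.56% of each MB1 total, and pseudogenes took 36.0% to 38.2% and 25.2% to 26.8%. All 9 oligodendrocyte precursor markers were above 1 TPM in at least 1 Oli-neu library, among them Sox10 at 184 ± 18.0 TPM in Oli-neu alone (SD, n = 2). MB1 expressed the granule neuron precursor marker Zic1 at 74.0 ± 14.6 TPM when alone, but the lineage gene Atoh1 was at 0.00 and 0.0143 TPM and the hedgehog target Gli1 at 0.178 and 0.129 TPM in its replicates, both near 0, and 4 of the 8 granule neuron precursor markers were under 1 TPM in every MB1 library. The oligodendrocyte lineage factor Olig2 was at 246 and 228 TPM in MB1 alone, above the 64.7 and 76.0 TPM of Oli-neu alone. The 6 microglia markers were each under 1 TPM in every library.

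The 2 sets differed in the letters near their start sites. RefSeq windows of the GRCm38.p6 assembly, from 250 bases before to 50 bases after the transcription start, were found for 42 of the 48 genes, and had none for Cth, Hyou1, Manf, Aldh1l2, Slc7a3 and Slc7a5. The C/EBP-ATF response element, searched as TGATGNAA on both strands, is the type of site that ATF4 binds with a C/EBP partner. It was present in 8 of 25 amino acid response genes with a window (32%), in 1 of 17 ER folding genes (5.88%) and in 4.51% of all 27025 genes of the table. The ER stress element, searched on both strands as CCAAT and CCACG separated by 9 bases, was present in 8 of 17 ER folding genes (47.1%), in none of the 25 amino acid response genes and in 0.137% of all genes. The unfolded protein response element TGACGTGG was found in no window of either set and in 0.714% of all genes. No window of the 48 genes held more than one kind of these motifs. These matches describe letters and were not tested as binding sites.

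The C/EBP-ATF matches are shown because they mark the amino acid response genes that carry the textbook ATF4 site, with 6 bases on each side in lower case and the motif in capitals. Each line is written on the strand that carries the motif, in GRCm38 coordinates. Slc7a11 had 2 matches, Trib3 had its match just after the start site, and Herpud1, whose site is not shown, was the ER folding gene with a match.
Atf3, chr1:191183430-191183449, plus strand: acttggTGATGCAAgtgcga
Chac1, chr2:119351043-119351062, minus strand: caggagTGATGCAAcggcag
Trib3, chr2:152344033-152344052, plus strand: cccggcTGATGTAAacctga
Slc7a11, chr3:50443666-50443685, minus strand: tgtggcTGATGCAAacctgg
Slc7a11, chr3:50443647-50443666, plus strand: gcatgaTGATGCAAattctc
Asns, chr6:7693219-7693238, minus strand: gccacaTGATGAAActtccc
Nupr1, chr7:126625567-126625586, plus strand: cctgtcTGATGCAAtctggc
Pycr1, chr11:120643838-120643857, minus strand: tgtgtaTGATGCAAtgcaca
Vldlr, chr19:27216814-27216833, minus strand: gagcgcTGATGCAActattg

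The ER stress elements of the ER folding genes are shown with their CCAAT and CCACG ends in capitals and the bases between them in lower case. Hsp90b1 had 2 of them, on opposite strands, and the element of Calr is not shown.
Hspa5, chr2:34772025-34772043, plus strand: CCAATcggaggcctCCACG
Hsp90b1, chr10:86705638-86705656, minus strand: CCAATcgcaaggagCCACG
Hsp90b1, chr10:86705533-86705551, plus strand: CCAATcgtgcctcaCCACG
Canx, chr11:50325800-50325818, minus strand: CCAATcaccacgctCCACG
Pdia6, chr12:17266491-17266509, plus strand: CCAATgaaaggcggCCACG
Dnajc3, chr14:118937827-118937845, plus strand: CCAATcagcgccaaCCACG
Creld2, chr15:88819520-88819538, minus strand: CCAATtgaggctcgCCACG
Syvn1, chr19:6046532-6046550, plus strand: CCAATcggcggtagCCACG

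The 250 bases before the start site are shown for Chac1 and Asns, as examples of the amino acid response, and for Hspa5, the gene of BiP, each in the direction of transcription and with its whole motif in capitals. The Chac1 motif lies on the opposite strand, so its capitals read as the reverse complement.
Chac1, chr2:119350992-119351241, plus strand: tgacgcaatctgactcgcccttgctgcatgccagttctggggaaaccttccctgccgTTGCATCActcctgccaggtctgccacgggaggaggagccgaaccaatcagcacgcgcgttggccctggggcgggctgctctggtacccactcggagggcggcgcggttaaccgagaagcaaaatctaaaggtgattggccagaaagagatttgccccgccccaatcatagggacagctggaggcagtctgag
Asns, chr6:7693210-7693459, minus strand: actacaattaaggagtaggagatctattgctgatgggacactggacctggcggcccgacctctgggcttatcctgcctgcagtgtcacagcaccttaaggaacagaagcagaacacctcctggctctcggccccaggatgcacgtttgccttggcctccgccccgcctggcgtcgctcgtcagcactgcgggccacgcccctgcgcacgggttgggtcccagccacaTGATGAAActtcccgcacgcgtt
Hspa5, chr2:34771840-34772089, plus strand: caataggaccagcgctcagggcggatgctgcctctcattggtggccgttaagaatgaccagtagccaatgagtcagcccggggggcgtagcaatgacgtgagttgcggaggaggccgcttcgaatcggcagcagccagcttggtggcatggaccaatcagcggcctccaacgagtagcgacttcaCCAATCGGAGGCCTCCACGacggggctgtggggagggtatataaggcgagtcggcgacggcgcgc

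Members were well expressed in both lines. In Oli-neu the amino acid response genes with the highest mean levels over all 6 libraries were Slc3a2, the heavy chain shared by several amino acid transporters, at 312 to 528 TPM, Ddit4, which restrains mTORC1, at 320.3 to 523 TPM, and the stress-induced chromatin protein Nupr1 at 222 to 251 TPM. In the 4 MB1 libraries they were Slc3a2 at 1016 to 1318 TPM, Phgdh at 221 to 315 TPM and Ddit4 at 207 to 323 TPM. The ER folding genes with the highest levels were Hsp90b1, the ER member of the HSP90 family, with 461 to 772 TPM for Oli-neu libraries and 791 to 1060.3 TPM for those of MB1, followed in Oli-neu by the lectin chaperone Calr at 365 to 516 TPM and by Hspa5 at 288 to 414 TPM, and in MB1 by the lectin chaperone Canx at 422 to 856 TPM and by Calr at 353 to 479 TPM. Slc7a11, which exchanges glutamate for cystine, Slc7a3, which imports cationic amino acids, and the secreted cytokine Gdf15 did not reach 1 TPM in 2 Oli-neu libraries, and were left out of the Oli-neu tests, which thus covered 45 of the 48 genes (26 and 19). In MB1 all 48 passed this filter.

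The lines grown alone differed in the make-up of the amino acid response. The regulators and feedback genes were mostly lower in MB1, and the transporters were higher. Levels come from 2 tables made separately, so no test was made. Both MB1 libraries lay above both Oli-neu libraries for 13 of the 29 amino acid response genes and 9 of the 19 ER folding genes, and below them for 11 and 6. Among all 12911 genes at 1 TPM or more, 55.0% lay above and 21.4% below. The median log2 ratio of MB1 to Oli-neu (with 1 TPM added) was 0.13 for the amino acid response and 0.09 for ER folding, against 0.36 for all genes, and it was -0.52 for the 14 regulators and feedback genes and 1.16 for the 4 transporters.

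Atf4 stood at 194 and 223 TPM in Oli-neu alone and at 98.2 and 129.8 TPM in MB1 alone. Trib3, a pseudokinase that binds ATF4 and limits it, was at 15.1 and 15.6 TPM against 3.28 and 5.04 TPM, and Xbp1 at 49.0 and 45.9 TPM against 15.6 and 17.4 TPM. All 3 were lower in both MB1 libraries. The opposite order was seen for Phgdh, which starts serine synthesis, with 44.4 and 39.0 TPM in Oli-neu and 241 and 315 TPM in MB1, for Slc7a5, the light chain of the large neutral amino acid transporter, with 29.9 and 35.7 TPM and 84.8 and 108 TPM, and for Gdf15, with 0.199 and 0.157 TPM and 11.2 and 19.2 TPM. On the log2 scale the differences ran from -1.67 for Trib3 to 3.78 for Gdf15, and Asns, at 142 and 166 TPM and 106 and 160.5 TPM, overlapped between the lines. The scatter of levels in both lines grown alone places Gdf15, Phgdh and Gpt2 well above the diagonal and Trib3, Ddit3 and Xbp1 below it.

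**Figure D1:**
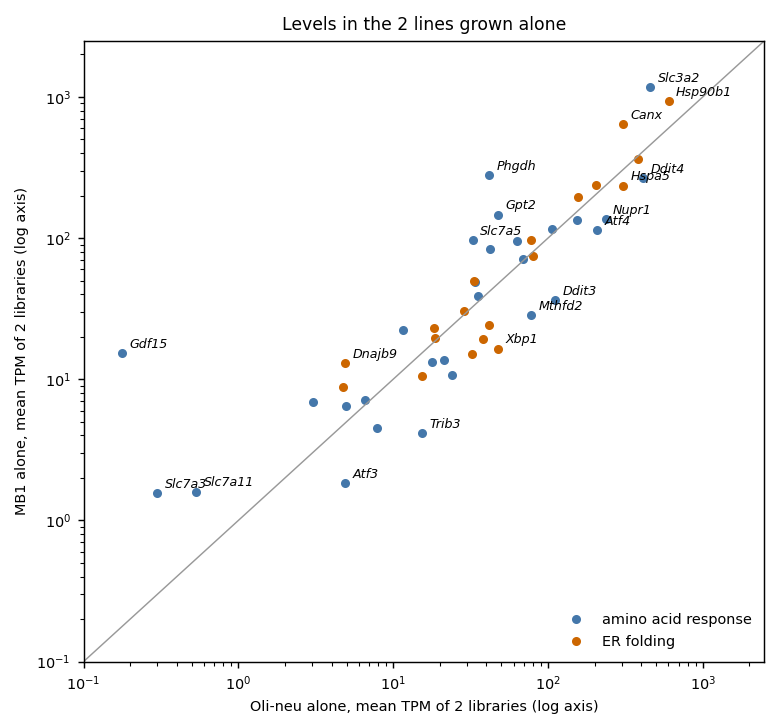
Mean level of each of the 48 genes in Oli-neu alone (x axis, TPM) and in MB1 alone (y axis, TPM), both on log axes, as the mean of 2 libraries. Blue points are amino acid response genes, orange points are ER folding genes, and the line marks equal levels. Gdf15 lies farthest from the line.

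Whether a neighbouring line that shares only the medium shifts these programmes was addressed with limma on log2(TPM + 1) over all tested genes, with Benjamini-Hochberg adjustment. Inserts are recorded for the co-culture groups only, so the insert and the neighbouring line cannot be told apart. No member passed an adjusted p of 0.05 in any of the 4 comparisons, and neither did any other gene, so the share of all tested genes called was 0.00% in each of them. The values below are therefore descriptions. In every comparison the median log2 fold change of all genes was under 0, at -0.06 for Oli-neu with MB1 against alone, -0.16 for Oli-neu with D341 against alone, -0.09 for Oli-neu with D341 against with MB1 and -0.17 for MB1 with Oli-neu against alone. Scaling the libraries by their median ratio brought these medians to between -0.01 and 0.01, so fold changes of members are to be read against that shift. Both Oli-neu co-cultures are set against the same 2 Oli-neu alone libraries, so their values are not independent of each other. In bulk RNA, fewer cells of a type and less RNA per cell cannot be told apart.

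In Oli-neu with MB1, the amino acid response genes had a median log2 fold change of -0.13 against alone, with 20 of 26 lower on average, and the ER folding genes a median of 0.01, with 7 of 19 lower, where 62.6% of all genes were lower. After median-ratio scaling 16 of 26 and 3 of 19 were lower, where 51.3% of all genes were. The co-culture pair was entirely below the monoculture pair for 12 of 26 amino acid response genes and 1 of 19 ER folding genes, where 24.0% of all genes were, and above it for 1 and 5, where 10.1% of all genes were. At an unadjusted p under 0.05, 0 members were lower (4.65% of all genes) and 0 were higher (1.43%), and after median-ratio scaling 0 were lower (3.03%) and 1 was higher (2.77%). Without 1 library at a time the amino acid response median ranged from -0.22 to -0.063, and that of all genes from -0.097 to -0.018. Over the amino acid response the median difference was -0.02 for the libraries numbered 1 and -0.33 for number 2, so the replicates did not show the same shift.

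In Oli-neu with D341, the amino acid response genes had a median of -0.32 against alone, with 19 of 26 lower, and the ER folding genes a median of -0.00065, with 10 of 19 lower. Since 75.8% of all genes were lower in this comparison, the first count is at the background share. At an unadjusted p under 0.05, 8 amino acid response genes were lower (12.1% of all genes) and 2 were higher (1.61% of all genes), while no ER folding gene was either. The D341 co-culture pair was entirely below the monoculture pair for 17 of 26 amino acid response genes and 2 of 19 ER folding genes, where 44.0% of all genes were, and above it for 2 and 6, where 7.12% were. After median-ratio scaling the counts at that p were 3 lower and 2 higher for the amino acid response and 0 lower and 4 higher for ER folding, against 3.75% lower and 4.88% higher of 12268 genes tested. The scaled medians were -0.14 and 0.18, with 17 of 26 and 2 of 19 lower where 49.9% of all genes were. Leaving out 1 library at a time gave amino acid response medians from -0.35 to -0.17, and medians of all genes from -0.18 to -0.14. The summed level of the 9 oligodendrocyte precursor markers was 638 to 708 TPM in Oli-neu alone, 625 to 727 TPM with MB1 and 559 to 586 TPM with D341, and that of the 5 fibroblast markers 95.9 to 101 TPM, 74.6 to 87.3 TPM and 61.2 to 74.2 TPM. Most of the fibroblast sum was the collagen gene Col3a1, at 94.5 and 90.9 TPM alone, 82.6 and 70.6 TPM with MB1 and 57.7 and 71.4 TPM with D341. Col1a2 and Dcn were under 1 TPM in every Oli-neu library. The part of these marker differences in the results for both Oli-neu co-cultures was not tested.

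Set directly against Oli-neu with MB1, Oli-neu with D341 had a median of -0.20 over the amino acid response, with 18 of 26 lower, and of -0.01 over ER folding, with 10 of 19 lower, where 68.5% of all genes were lower. The first count is at the background share. Of the enzymes, 3 stood at an unadjusted p under 0.05 on the lower side (4.34% of all genes) and none on the higher side (0.790% of all genes). Both D341 libraries lay below both MB1 co-culture libraries for 10 amino acid response genes and 1 ER folding gene (28.8% of all genes), and above them for 4 and 1 (6.60%). The median over the amino acid response was -0.35 for the libraries numbered 1 and 0.05 for number 2. With median-ratio scaling the counts were 1 lower (1.90% of all genes) and 3 higher (2.01%), the medians were -0.08 and 0.10, and 15 of 26 and 4 of 19 were lower, where 46.9% of all genes were. Without 1 library at a time the unscaled amino acid response median ranged from -0.32 to -0.0055, and that of all genes from -0.14 to -0.057.

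In MB1 with Oli-neu, the amino acid response genes had a median of -0.38 against alone, with 21 of 29 lower, and the ER folding genes a median of -0.07, with 16 of 19 lower, where 70.9% of all genes were lower, so the first count is at the background share. At an unadjusted p under 0.05, 11 amino acid response genes were lower (12.6% of all genes) and 1 was higher (3.02% of all genes), and no ER folding gene was either. The co-culture pair was entirely below the monoculture pair for 17 of 29 amino acid response genes and 7 of 19 ER folding genes, where 41.5% of all genes were, and above it for 3 and 1, where 10.9% were. After median-ratio scaling 3 amino acid response genes were lower at that p and 3 were higher, with 1 ER folding gene higher, against 4.73% lower and 6.72% higher of 12397 genes. The scaled medians were -0.21 and 0.11, with 19 of 29 and 7 of 19 lower where 50.8% of all genes were. Leaving out 1 library at a time gave unscaled amino acid response medians from -0.48 to -0.29, and medians of all genes from -0.18 to -0.15. The summed level of the 9 oligodendrocyte precursor markers was 994 to 1165 TPM in MB1 alone and 673 to 808 TPM with Oli-neu, with Sox10 under 1 TPM in all 4, and that of the 8 granule neuron precursor markers was 107 to 127 TPM and 149.9 to 172 TPM. The 5 astrocyte markers summed to 379 to 413 TPM alone and 473 to 479 TPM with Oli-neu, with Gfap at 4.17 and 2.67 TPM and 6.23 and 9.29 TPM. The part of these marker differences in the result was not tested.

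**Figure D2:**
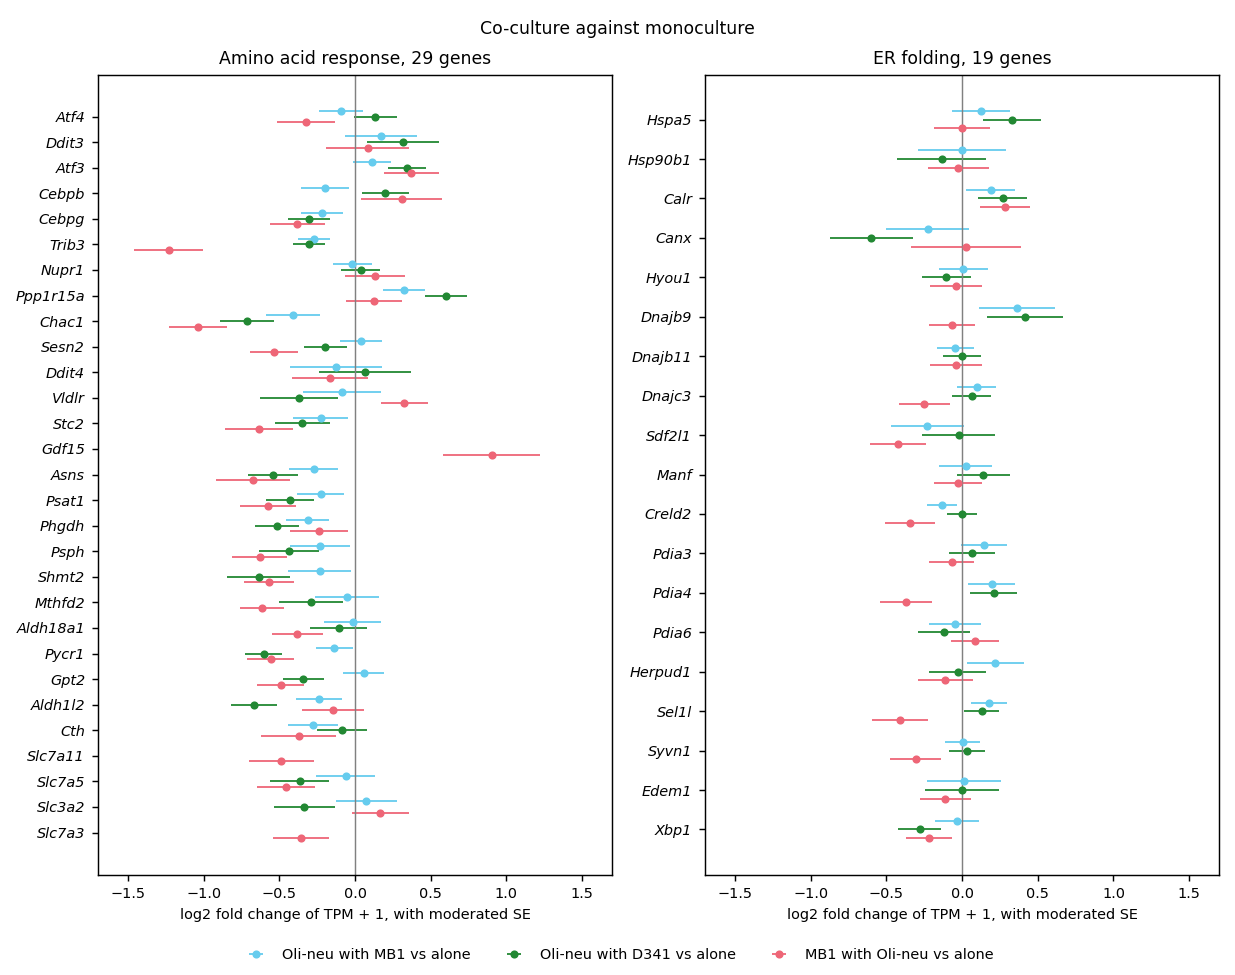
Log2 fold change of TPM + 1 for each gene (x axis) with its moderated standard error, for the 29 amino acid response genes (left) and the 19 ER folding genes (right). Pale blue is Oli-neu with MB1 against alone, green is Oli-neu with D341 against alone, and red is MB1 with Oli-neu against alone. The enzymes from Asns to Cth lie left of 0 in nearly all rows, with Gpt2 at 0.06 in Oli-neu with MB1 as the exception, while the ER folding genes lie on both sides.

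Within the amino acid response, the 11 enzymes lay mostly on one side. Their median log2 fold change was -0.23 in Oli-neu with MB1, -0.43 in Oli-neu with D341 and -0.56 in MB1 with Oli-neu, and 10, 11 and 11 of them were lower on average than in the same line alone, where 62.6%, 75.8% and 70.9% of all genes were. After median-ratio scaling the medians were -0.17, -0.25 and -0.38, with 8, 9 and 10 lower, where 51.3%, 49.9% and 50.8% of all genes were. Without 1 library at a time the enzyme median ranged from -0.33 to -0.092 in Oli-neu with MB1, from -0.57 to -0.40 in Oli-neu with D341 and from -0.57 to -0.45 in MB1. The summed level of the enzymes was 652 ± 39.7 TPM in Oli-neu alone, 579 ± 80.6 TPM with MB1 and 482 ± 40.4 TPM with D341, and 984 ± 130.4 TPM in MB1 alone and 712 ± 12.1 TPM with Oli-neu (SD, n = 2).

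Asns, the enzyme that makes asparagine and a classic ATF4 target, read 142 and 166 TPM in the replicates of Oli-neu alone, 136 and 119 TPM with MB1 and 95.6 and 116 TPM with D341. In MB1 it read 106 and 160.5 TPM alone and 88.7 and 75.1 TPM with Oli-neu. Every co-culture library lay below both libraries of the same line alone. The log2 fold change was -0.54 ± 0.17 (SE) in Oli-neu with D341, with an unadjusted p of 0.0218 and an adjusted p of 0.329 by limma, and -0.67 ± 0.25 in MB1, with an adjusted p of 0.310. The MB1 difference was -0.26 and -1.09 within the numbers 1 and 2. Same-numbered MB1 libraries did not deviate together (r of -0.115), so this split by number is arbitrary.

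Of the serine synthesis genes, only Psat1 lay below the line alone in every co-culture library, as Asns did. Psat1, which adds the amino group in serine synthesis, was at 99.8 and 111 TPM in Oli-neu alone, 96.6 and 83.5 TPM with MB1, 70.8 and 85.8 TPM with D341, 106 and 127 TPM in MB1 alone and 85.3 and 70.4 TPM in MB1 with Oli-neu, without overlap between either line alone and its co-cultures. Phgdh went from 44.4 and 39.0 TPM in Oli-neu alone to 36.6 and 30.3 TPM with MB1 and 27.7 and 30.0 TPM with D341, at log2 fold changes of -0.31 ± 0.14 and -0.52 ± 0.14. In MB1, where its level was several times higher, Phgdh overlapped between 241 and 315 TPM alone and 221 and 247 TPM with Oli-neu. Psph, which completes serine synthesis, was at 74.8 and 91.5 TPM in MB1 alone and 57.3 and 49.1 TPM with Oli-neu, a log2 fold change of -0.63 ± 0.18 with an adjusted p of 0.285 by limma. In Oli-neu, Psph overlapped between 46.5 and 38.5 TPM alone and 41.8 and 30.7 TPM with MB1, and was at 33.5 and 28.8 TPM with D341.

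The mitochondrial one-carbon enzymes take up the carbon that serine gives to folate. Shmt2, which removes it, was at 55.2 and 70.6 TPM in Oli-neu alone, 52.7 and 53.2 TPM with MB1 and 33.8 and 47.0 TPM with D341, and at 86.8 and 105 TPM in MB1 alone against 64.1 and 64.2 TPM with Oli-neu. Mthfd2, the next enzyme of the pathway, read 29.4 and 27.4 TPM in MB1 alone and 18.4 and 18.1 TPM with Oli-neu, at -0.61 ± 0.14 with an adjusted p of 0.282 by limma. In Oli-neu with MB1 the replicates of Mthfd2 lay on both sides of the controls, at 90.5 and 61.9 TPM against 74.5 and 81.1 TPM. Aldh1l2, which oxidises formyl-folate in mitochondria, was at 20.1 and 22.6 TPM in Oli-neu alone, 19.9 and 16.1 TPM with MB1 and 12.1 and 14.1 TPM with D341. Its log2 fold change of -0.67 ± 0.15 with D341 had an unadjusted p of 0.00681 and an adjusted p of 0.320 by limma, while in MB1 it overlapped between 12.6 and 14.7 TPM and 10.5 and 14.3 TPM and changed sign with median-ratio scaling, from -0.14 to 0.03.

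Pycr1, which carries out the last step of proline synthesis, was the enzyme with the smallest p in Oli-neu with D341. It read 22.8 and 25.3 TPM in Oli-neu alone, 22.5 and 21.0 TPM with MB1 and 14.4 and 16.6 TPM with D341, so that the 3 groups did not overlap. The log2 fold change with D341 was -0.60 ± 0.12 against alone (unadjusted p 0.00403, adjusted p 0.320 by limma) and -0.47 ± 0.12 against Oli-neu with MB1 (unadjusted p 0.0118, adjusted p 0.839). MB1 held 10.5 and 10.9 TPM alone and 7.35 and 6.53 TPM with Oli-neu, at -0.56 ± 0.15. Gpt2, the mitochondrial alanine transaminase, was at 49.1 and 45.7 TPM, 54.6 and 44.6 TPM and 37.2 and 37.2 TPM in the Oli-neu groups in the same order, and at 149 and 144 TPM and 96.3 and 112 TPM in MB1. With Aldh1l2 at -0.43 ± 0.15 and Gpt2 at -0.40 ± 0.14, these were the 3 genes with an unadjusted p under 0.05 between the Oli-neu co-cultures, each at an adjusted p of 0.839 by limma. The remaining enzymes were Aldh18a1, which starts proline synthesis, and Cth, which makes cysteine, with log2 fold changes of -0.02 and -0.28 in Oli-neu with MB1, -0.11 and -0.09 with D341 (0.08 and 0.07 after median-ratio scaling) and -0.38 and -0.37 in MB1.

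**Figure D3:**
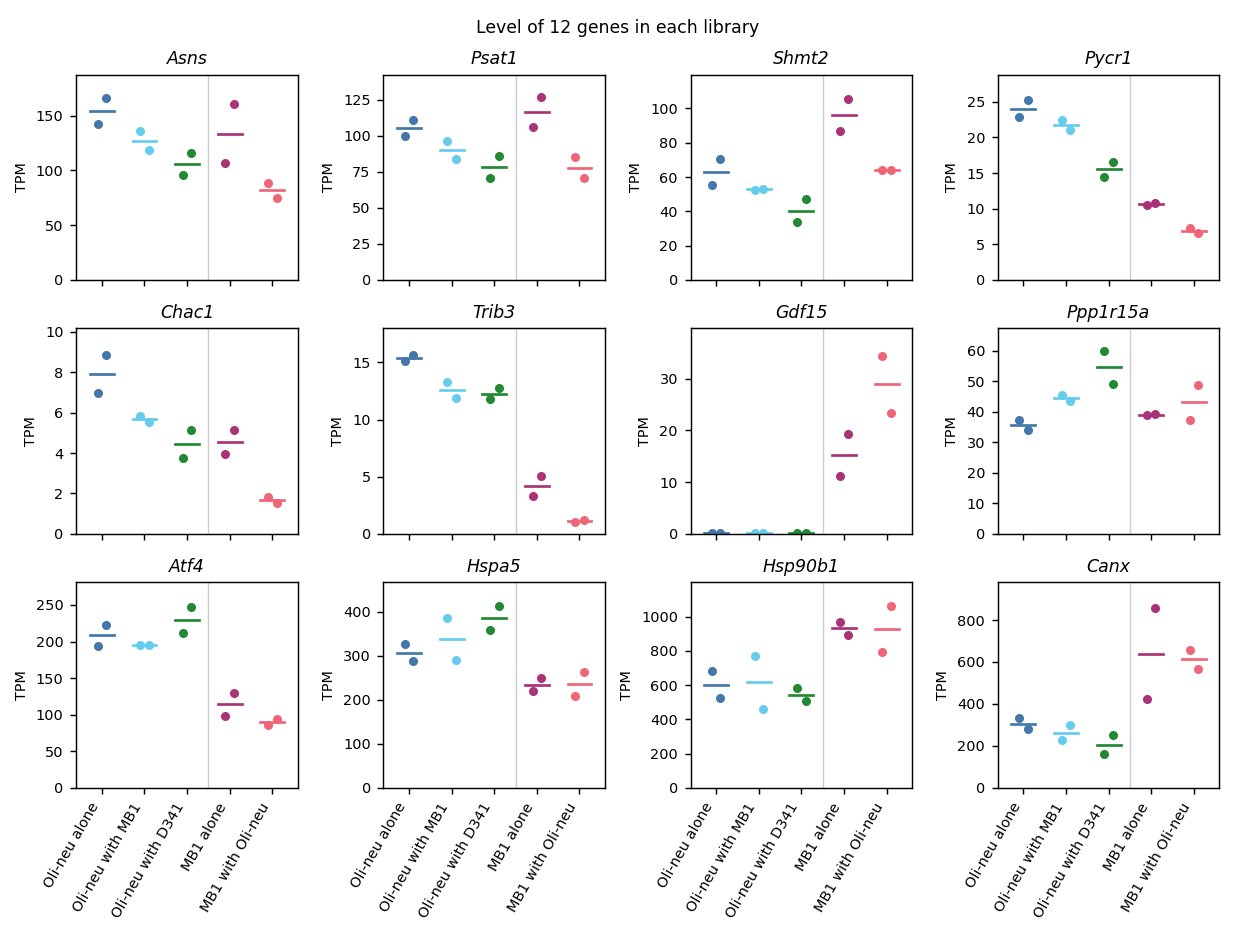
Level of 12 genes (TPM, y axis from 0) in each library (x axis, 5 groups). Points are the 2 replicates of a group, bars are their mean, and a grey line separates the Oli-neu table from the MB1 table. The enzymes Asns, Psat1, Shmt2 and Pycr1 step down from monoculture to co-culture in both lines, while Atf4, Hspa5, Hsp90b1 and Canx do not share that pattern.

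The regulators and feedback genes did not move as one group. Their median log2 fold changes were -0.09, 0.04 and -0.04 in Oli-neu with MB1, Oli-neu with D341 and MB1 with Oli-neu, and -0.03, 0.22 and 0.15 after median-ratio scaling. Without 1 library at a time they ranged from -0.19 to 0.0069, from -0.23 to 0.12 and from -0.36 to 0.14, so the sign of each rested on single libraries. Atf4 itself read 194 and 223 TPM in Oli-neu alone, 195 and 196 TPM with MB1, 211 and 247 TPM with D341, 98.2 and 129.8 TPM in MB1 alone and 86.6 and 93.5 TPM in MB1 with Oli-neu. Its log2 fold change was -0.09 ± 0.14, 0.13 ± 0.14 and -0.32 ± 0.19 in these co-cultures, and only in MB1 were both co-culture libraries on one side of both controls. Since ATF4 is regulated in large part through translation of its message, the mRNA level reports on it incompletely.

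Chac1, which degrades glutathione, and Trib3 had the most negative values of the regulators in MB1. Chac1 was at 6.95 and 8.88 TPM in Oli-neu alone, 5.83 and 5.52 TPM with MB1 and 3.74 and 5.16 TPM with D341, and at 3.93 and 5.16 TPM in MB1 alone against 1.83 and 1.54 TPM with Oli-neu. The fold change of Chac1 was -0.41 ± 0.18, -0.71 ± 0.18 and -1.04 ± 0.19 on the log2 scale, with adjusted p values of 0.830, 0.320 and 0.282 by limma. All 6 co-culture libraries lay below the line alone. Trib3 was at 15.1 and 15.6 TPM, 13.3 and 11.9 TPM and 11.8 and 12.7 TPM in the same Oli-neu groups and at 3.28 and 5.04 TPM and 1.08 and 1.26 TPM in MB1, at -0.27 ± 0.11, -0.30 ± 0.11 and -1.23 ± 0.23, again without overlap. The MB1 values of Chac1 and Trib3 were -0.90 and -1.10 after median-ratio scaling, and both genes stood at low levels there, where adding 1 TPM shrinks the fold change.

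The feedback gene Ppp1r15a pointed the other way in both Oli-neu co-cultures, and the regulator Atf3 did so in Oli-neu with D341 and in MB1 with Oli-neu. For Ppp1r15a, whose product GADD34 guides the phosphatase that resets eIF2, levels were 37.2 and 34.0 TPM in Oli-neu alone, 45.6 and 43.7 TPM with MB1 and 59.9 and 49.2 TPM with D341, above the controls in all 4 co-culture libraries. The log2 fold changes were 0.32 ± 0.14 and 0.60 ± 0.14, with adjusted p values of 0.828 and 0.320 by limma. Atf3, a stress-induced member of the ATF family, was at 4.40 and 5.44 TPM in Oli-neu alone and 6.31 and 6.67 TPM with D341, at 0.35 ± 0.13, and overlapped the controls at 5.56 and 5.17 TPM with MB1. In MB1, Atf3 was at low levels, with 1.82 and 1.84 TPM alone and 2.32 and 3.03 TPM with Oli-neu. Ppp1r15a overlapped there, at 39.0 and 39.2 TPM alone and 37.4 and 48.9 TPM with Oli-neu. Cebpb, a C/EBP factor that pairs with ATF4, was higher with D341 at 4.13 and 3.12 TPM than with MB1 at 2.38 and 2.60 TPM, at 0.40 ± 0.16 with an adjusted p of 0.839 by limma. Oli-neu alone was at 2.76 and 3.27 TPM, so Cebpb overlapped the controls with D341 and lay below them with MB1.

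In MB1, Gdf15 had the largest positive value of all members. It read 11.2 and 19.2 TPM alone and 34.4 and 23.5 TPM with Oli-neu, a log2 fold change of 0.90 ± 0.32 with an unadjusted p of 0.0386 and an adjusted p of 0.306 by limma. Both co-culture libraries lay above both controls. The difference was 1.53 and 0.27 within equal numbers, a split that is arbitrary in MB1, where same-numbered libraries did not deviate together. Sesn2, a leucine sensor that restrains mTORC1, was at 21.6 and 23.2 TPM and 16.4 and 14.0 TPM, and the secreted glycoprotein Stc2 at 6.55 and 7.66 TPM and 5.17 and 3.40 TPM, at -0.53 ± 0.16 and -0.63 ± 0.22. Without overlap, Vldlr, a lipoprotein receptor gene, was at 45.1 and 52.5 TPM alone and 61.9 and 60.7 TPM with Oli-neu, a value of 0.33 ± 0.16 on the log2 scale, where Oli-neu with D341 had -0.37 ± 0.26. Cebpg, which dimerises with ATF4, was at -0.22, -0.31 and -0.38 in Oli-neu with MB1, Oli-neu with D341 and MB1. Nupr1 was at -0.02, 0.04 and 0.13 and Ddit4 at -0.12, 0.07 and -0.16, where the last was 0.03 after median-ratio scaling.

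Ddit3, which encodes the stress factor CHOP, has 2 identifiers in the tables, and its level is uncertain for that reason. The gene used here (ENSMUSG00000025408, chr10:127290774-127296288) was at 95.9 and 127 TPM in Oli-neu alone, 124 and 126 TPM with MB1, 114 and 166 TPM with D341, 28.5 and 44.4 TPM in MB1 alone and 32.9 and 43.4 TPM in MB1 with Oli-neu, and it overlapped between monoculture and co-culture in each comparison. The second identifier (ENSMUSG00000116429, chr10:127290829-127293753) has a single transcript of 105 bases in 2 exons inside the first gene's span on the same strand. It was listed at 0 TPM in replicate 1 and 539 TPM in replicate 2 of Oli-neu alone, at 69.0 and 496 TPM with MB1, at 0 and 702 TPM with D341, at 0 and 166 TPM in MB1 alone and at 66.8 and 67.2 TPM in MB1 with Oli-neu. Reads from the shared exons could be assigned to either entry, and the effect of this on the Ddit3 level was not tested. Ddit3 exons also overlap those of Mars on the opposite strand.

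**Figure D4:**
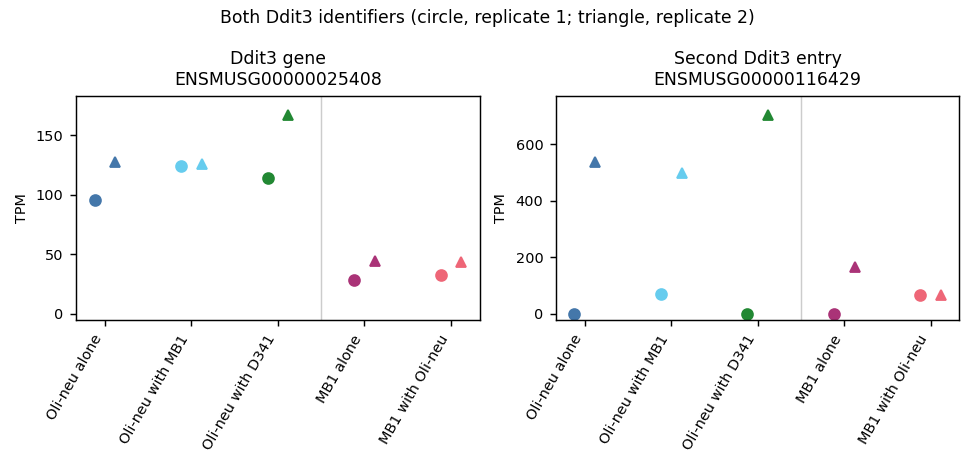
Level (TPM, y axis) of the Ddit3 gene (left) and of the short second Ddit3 identifier (right) in each library, with circles for replicate 1 and triangles for replicate 2. The second identifier is at 0 in 3 of the 5 circles and reaches 702 TPM in Oli-neu with D341 replicate 2.

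Of the transporters, only Slc7a5 and Slc3a2 were tested in Oli-neu. Slc7a5 was at 29.9 and 35.7 TPM alone, 31.6 and 30.9 TPM with MB1 and 21.1 and 29.8 TPM with D341, and Slc3a2 at 438 and 481 TPM, 528 and 443 TPM and 312 and 424 TPM. Both D341 co-culture libraries lay below the controls for these 2 partners, whose log2 fold changes were -0.37 ± 0.19 and -0.33 ± 0.20. In MB1 the co-culture was below the controls for Slc7a5 and overlapped for Slc3a2, with Slc7a5 at 84.8 and 108 TPM alone and 74.3 and 65.3 TPM with Oli-neu and Slc3a2 at 1016 and 1318 TPM and 1317 and 1284 TPM. Slc7a11 and Slc7a3 stayed under 2 TPM in all MB1 libraries and under 1 TPM in all Oli-neu libraries.

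The ER folding genes had medians of 0.01, -0.00065 and -0.07 in Oli-neu with MB1, Oli-neu with D341 and MB1 with Oli-neu. These were 0.07, 0.16 and 0.10 above the median of all genes. The sum of the 11 chaperones and co-chaperones was 1884 ± 156 TPM in Oli-neu alone, 1935 ± 249 TPM with MB1 and 1905 ± 176 TPM with D341, and 2493 ± 313 TPM in MB1 alone and 2524 ± 213 TPM with Oli-neu (SD, n = 2), differences smaller than the SD of the replicates.

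Hspa5, the main ER chaperone and a sensor of unfolded proteins, was at 327 and 288 TPM in Oli-neu alone, 386 and 291 TPM with MB1 and 359 and 414 TPM with D341. Both libraries with D341 lay above the controls, at 0.33 ± 0.19 with an unadjusted p of 0.143 and an adjusted p of 0.459 by limma. After median-ratio scaling the value was 0.51 with an unadjusted p of 0.0333 and an adjusted p of 0.542 by limma. In MB1, Hspa5 was at 219.7 and 249 TPM alone and 208 and 262 TPM with Oli-neu, which overlapped.

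Calr was likewise above the controls in Oli-neu with D341, at 406 and 516 TPM against 365 and 394 TPM, a log2 fold change of 0.27 ± 0.16. Its partner Canx had the lowest value of the ER folding set there, at 161 and 252 TPM against 332 and 281 TPM and -0.60 ± 0.27, with an adjusted p of 0.392 by limma. The replicates of Canx disagreed in size, with differences of -1.04 and -0.16 within the numbers 1 and 2. In MB1 alone the Canx replicates were 422 and 856 TPM, the widest gap of the set in that line, and with Oli-neu they were 658 and 568 TPM. Hsp90b1 overlapped in every comparison, at 682 and 522 TPM in Oli-neu alone, 772 and 461 TPM with MB1 and 581 and 508 TPM with D341.

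Among the co-chaperones, Dnajb9, a J-domain partner of BiP, was above the controls in Oli-neu with MB1, at 6.55 and 6.60 TPM against 4.75 and 5.04 TPM, and Creld2, a secreted ER stress protein, was below them, at 33.9 and 35.0 TPM against 38.3 and 37.4 TPM. The log2 fold changes were 0.36 ± 0.25 and -0.13 ± 0.10, with adjusted p values of 0.903 and 0.918 by limma. In MB1 with Oli-neu the ER folding genes with the smallest p were Sdf2l1, a partner of the J-domain proteins, at 10.9 and 11.0 TPM against 13.1 and 17.1 TPM, Sel1l at 24.3 and 21.2 TPM against 34.2 and 27.1 TPM, Pdia4 at 52.7 and 61.6 TPM against 68.2 and 79.9 TPM and Creld2 at 15.0 and 14.9 TPM against 17.4 and 21.2 TPM. Their log2 fold changes of -0.42, -0.41, -0.37 and -0.34 had adjusted p values from 0.344 to 0.375 by limma, and shrank to -0.25, -0.23, -0.18 and -0.16 after median-ratio scaling.

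In Oli-neu, Sel1l, the adaptor of the HRD1 ligase that clears misfolded proteins, was at 27.4 and 30.1 TPM alone, 34.1 and 31.1 TPM with MB1 and 32.9 and 30.1 TPM with D341, and Pdia4, which forms and rearranges disulfide bonds, at 86.1 and 74.9 TPM, 102 and 83.2 TPM and 96.3 and 89.8 TPM. Herpud1, a membrane component of the same degradation machinery, was at 53.1 and 44.7 TPM with MB1 and 35.2 and 47.3 TPM with D341, which overlapped. Xbp1 was at 49.0 and 45.9 TPM alone, 50.8 and 42.2 TPM with MB1 and 36.4 and 41.4 TPM with D341, and at 15.6 and 17.4 TPM in MB1 alone and 14.6 and 13.5 TPM with Oli-neu. Its log2 fold change was -0.28 ± 0.14 in Oli-neu with D341 and -0.22 ± 0.15 in MB1, both without overlap and with adjusted p values of 0.421 and 0.488 by limma. The remaining ER folding genes were the chaperones and co-chaperones Hyou1, Dnajb11, Dnajc3 and Manf, the isomerases Pdia3 and Pdia6 and the degradation genes Syvn1 and Edem1. Their log2 fold changes ran from -0.05 (Pdia6) to 0.15 (Pdia3) in Oli-neu with MB1, from -0.12 (Pdia6) to 0.14 (Manf) with D341 and from -0.31 (Syvn1) to 0.09 (Pdia6) in MB1. Xbp1 values are totals over the gene and do not tell spliced from unspliced Xbp1 mRNA.

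**Figure D5:**
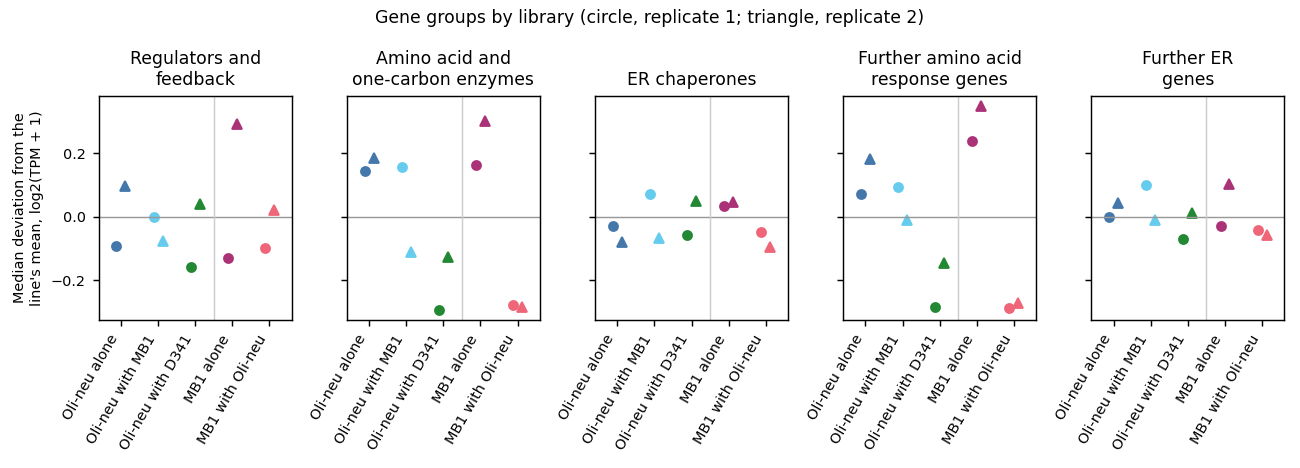
Median deviation of a gene group from its mean over the line's libraries, in log2(TPM + 1) (y axis), for each library (x axis, 5 groups), with circles for replicate 1 and triangles for replicate 2. The enzymes are at 0.14 and 0.18 in Oli-neu alone and at -0.29 and -0.13 with D341, and at 0.16 and 0.30 in MB1 alone and -0.28 in both libraries with Oli-neu, while the ER chaperones stay between -0.09 and 0.07.

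Further genes of the same pathways were read from lists outside the 48. Of 14 further amino acid response genes, 11 were tested in Oli-neu and 13 in MB1. Their medians were -0.13, -0.33 and -0.54 in Oli-neu with MB1, Oli-neu with D341 and MB1 with Oli-neu, with 10, 11 and 13 lower and 0, 5 and 8 at an unadjusted p under 0.05 (all lower), where 62.6%, 75.8% and 70.9% of all genes were lower and 4.65%, 12.1% and 12.6% were lower at that p. After median-ratio scaling the medians were -0.07, -0.16 and -0.36, with 8, 9 and 12 lower and 0, 1 and 3 lower at that p. Of all genes, 51.3%, 49.9% and 50.8% were then lower, and 3.03%, 3.75% and 4.73% were lower at that p. Slc38a2, a neutral amino acid transporter that ATF4 induces, was at 65.0 and 56.8 TPM in MB1 alone and 38.4 and 34.9 TPM with Oli-neu, and Slc7a1, a cationic amino acid transporter, at 6.84 and 8.19 TPM and 4.42 and 3.58 TPM, with log2 fold changes of -0.71 ± 0.16 and -0.77 ± 0.18. In Oli-neu the neutral amino acid transporter Slc1a4 was at 15.8 and 16.8 TPM alone, 17.5 and 15.6 TPM with MB1 and 10.8 and 11.4 TPM with D341, and the translation repressor Eif4ebp1 at 114 and 113 TPM, 104 and 99.2 TPM and 81.8 and 90.2 TPM. None of them passed the adjusted threshold.

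Aminoacyl-tRNA synthetases, which load amino acids onto tRNA, were read as 12 genes known as ATF4 targets and 8 other cytosolic ones. In MB1 with Oli-neu the medians of these lists were -0.41 and -0.29, with 12 of 12 and 7 of 8 lower, and in Oli-neu with D341 they were -0.26 and -0.31, with 11 of 12 and 8 of 8 lower, where 70.9% and 75.8% of all genes were lower. After median-ratio scaling they were -0.22 and -0.11 in MB1, with 11 of 12 and 6 of 8 lower, where 50.8% of all genes were. In Oli-neu with D341 the scaled medians were -0.07 and -0.13, with 7 of 12 and 6 of 8 lower, where 49.9% of all genes were. For Oli-neu with MB1 the medians were -0.10 and -0.10, with 10 of 12 and 6 of 8 lower, where 62.6% of all genes were. Scaled, these were -0.04 and -0.04, with 7 of 12 and 6 of 8 lower, where 51.3% of all genes were. Tars was at 45.1 and 44.9 TPM in MB1 alone and 27.9 and 29.3 TPM with Oli-neu, at -0.63 ± 0.14, and Rars, which is on the second list, at 29.1 and 29.9 TPM and 17.8 and 20.1 TPM, at -0.61 ± 0.15. Both had an adjusted p of 0.282 by limma. The 28 tested genes of a further ER list had medians of 0.02, -0.05 and -0.09, which were 0.08, 0.13 and 0.09 after median-ratio scaling, and 1 of them, Derl2, which acts in ER-associated degradation, had an unadjusted p under 0.05 in MB1, at 16.3 and 16.4 TPM alone and 12.5 and 10.5 TPM with Oli-neu.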

How the data were processed

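Poly(A) RNA from 10 mouse libraries was compared. The deposited values are TPM per gene, which the authors made with Salmon 0.14.1, and FastQC 0.11.8, MultiQC 1.7 and DESeq2 1.22.2 are also named, per the submitters' processing notes, with builds GRCm38 and GRCh38. Each column summed to 1000000 TPM, no counts were given, and no count test or counting interval was possible. TPM are relative, so a change in abundant transcripts moves all others.

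Symbols and positions came from GENCODE M21 (GRCm38). limma 3.58.1 (R 4.3.3) was run on log2(TPM + 1) of every gene that reached 1 TPM in 2 or more of a table's libraries (empirical Bayes with a trend, two-sided, Benjamini-Hochberg over all genes, threshold 0.05). The 6 Oli-neu libraries shared 1 fit for 3 comparisons and the 4 MB1 libraries had their own. The lines were not tested against each other, since their tables are separate. Errors of fold changes are moderated SE. The procedure was tested on simulated data. p-values measure the spread between 2 biological replicates per group.

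Named genes were the 4 of each set with the smallest p in a comparison, the 3 with the highest mean level in a line, Atf4, Ddit3, Xbp1, Hspa5, those that failed the filter, and for other lists the 2 with the smallest p. All other members described were picked with their values in view. The members and lists were chosen with earlier results of these data known. Exons of 13 members overlap exons of a gene on the other strand, and whether the quantification used strand is not given in the sources used here.

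Same-numbered Oli-neu libraries deviated together across genes (r of 0.593 to 0.618), and MB1 libraries did not (r of -0.115). Alternatives were other pseudocounts, filters, scalings, gene sets, limma settings, a replicate block, separate fits of each pair of Oli-neu groups, and leaving out single libraries. A crossed pairing in MB1 was chosen after seeing the data.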

Additional observations from a re-analysis of the deposited data

Results flagged for a closer look

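For 4 genes both co-culture libraries lay on one side of the controls in one line and on the other side in the other line. The share of all genes that did so was not counted, so the 4 are listed only as a description. Of all genes, 24.0% lay entirely below the controls and 10.1% above in Oli-neu with MB1. These shares were 44.0% and 7.12% in Oli-neu with D341 and 41.5% and 10.9% in MB1 with Oli-neu. The median log2 fold change of all genes was -0.06, -0.16 and -0.17 in the same order. The lines are in separate tables, so the difference between their fold changes was not tested. Sel1l, which serves ER-associated degradation, had a log2 fold change of 0.17 in Oli-neu with MB1 and 0.13 in Oli-neu with D341, and of -0.41 in MB1 with Oli-neu. Pdia4, a disulfide isomerase, was at 0.21 in Oli-neu with D341 and -0.37 in MB1 with Oli-neu. Dnajc3, a co-chaperone that also inhibits eIF2 kinases, was at 0.064 and -0.25 in the same comparisons. In Oli-neu with D341 the separation from the controls was narrow for Sel1l and for Dnajc3, the latter at 4.91 and 5.08 TPM against 4.84 and 4.63 TPM. The lipoprotein receptor gene Vldlr had the opposite order, at -0.37 in Oli-neu with D341 and 0.33 in MB1 with Oli-neu.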

How the results depend on the processing

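With 2 libraries per group and unknown depth, only large changes could pass the threshold. No member passed it in any of 60 alternative fits over the 4 comparisons, and the smallest adjusted p of a member by limma was 0.450 in Oli-neu with MB1, 0.179 in Oli-neu with D341, 0.498 between these and 0.115 in MB1, where the smallest adjusted p of a member reached up to 1.00, 0.672, 1.00 and 0.707 over the alternatives. Of the 8 genes with the smallest p in each comparison, 4 from each set, none reversed its sign under an alternative. Picking genes by p in the same data favours such a stable sign. Over all 45, 45, 45 and 48 members tested in these comparisons, 8, 10, 9 and 11 changed sign with median-ratio scaling, 21, 13, 24 and 17 without at least 1 of the libraries in turn, and 3, 4, 0 and 3 under at least 1 other setting. Xbp1 in Oli-neu with MB1 went from -0.033 to 0.030 with median-ratio scaling. The number of all genes called, 0 as reported, was 3 in Oli-neu with MB1 with a pseudocount of 0.1 TPM, 1 with no filter, 2 with median-ratio scaling, 2 with protein-coding genes alone and 1 with limma without a trend. In Oli-neu with D341 it was 3 with no filter and 1 with protein-coding genes alone, and 0 to 2 without 1 library. Between the Oli-neu co-cultures it was 6 with no filter, 1 with protein-coding genes alone and 1 with limma without a trend. In MB1 it was 5 with protein-coding genes alone, 9 with robust=TRUE, and 0 to 68 without 1 library, the 68 without MB1 alone replicate 1. Median-ratio scaling moved the median log2 fold change in Oli-neu with D341 from -0.32 to -0.14 for the amino acid response and from -0.00065 to 0.18 for ER folding, and in MB1 from -0.07 to 0.11 for ER folding, which was -0.043 with protein-coding genes alone. Without 1 library the ER folding median ranged from -0.023 to 0.16 in Oli-neu with MB1, from -0.037 to 0.10 in Oli-neu with D341 and from -0.17 to -0.095 in MB1, and the amino acid response median from -0.35 to -0.17 in Oli-neu with D341 and from -0.32 to -0.0055 between the Oli-neu co-cultures. The cause of these shifts was not tested. With the replicate number as a block, 0 genes and 0 members were called in every comparison. Crossing the MB1 pairs also gave 0 genes and 0 members called.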

Other observations

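Genes that sense or relay stress, upstream of ATF4 or in the separate XBP1 and ATF6 arm, were measured beside the ATF4 targets. Of 9 stress kinases, sensors and proteases, the median log2 fold change was -0.12 in Oli-neu with MB1, -0.17 in Oli-neu with D341 and, over 8 tested genes, -0.37 in MB1 with Oli-neu, and -0.08, -0.04 and -0.21 after median-ratio scaling. The medians of all genes tested were -0.06, -0.16 and -0.17 before scaling. Mbtps1, the protease that activates ATF6, was at 54.7 and 47.2 TPM in Oli-neu alone and 38.6 and 36.9 TPM with D341, and at 55.5 and 47.2 TPM in MB1 alone and 32.4 and 33.4 TPM with Oli-neu, lower in all 4 co-culture libraries named here. Eif2ak3, the ER stress kinase PERK, read 18.8 and 17.6 TPM in Oli-neu alone and 16.8 and 14.1 TPM with MB1.

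The 9 genes for eIF2, eIF2B and their regulators had medians of -0.14, -0.25 and -0.33 in the same comparisons, and of -0.08, -0.07 and -0.16 after median-ratio scaling. Eif2s1, the subunit that is phosphorylated in the stress response, was at 22.1 and 23.9 TPM in Oli-neu alone, 20.7 and 17.7 TPM with MB1 and 14.9 and 16.5 TPM with D341, and at 57.8 and 61.6 TPM in MB1 alone and 42.2 and 43.0 TPM with Oli-neu. Ppp1r15b, the constitutive eIF2 phosphatase subunit, was at 20.4 and 21.0 TPM and 14.4 and 11.1 TPM in MB1. None of these genes passed the adjusted threshold by limma, with the smallest adjusted p of a list from 0.282 in MB1 to 0.892 in Oli-neu with MB1.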
